A study of Mus musculus with 4 samples.

Results

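The proteasome genes are those that encode the subunits, activators, inhibitor and assembly factors of the cell's main protease for ubiquitin-tagged proteins. Rows of the deposited expression table were taken whose symbol begins with Psma, Psmb, Psmc, Psmd, Psme, Psmf or Psmg followed by a number and whose mean over the libraries was at least 1 RPKM, leaving out the immunoproteasome genes Psmb8, Psmb9 and Psmb10. RPKM is the number of reads scaled by gene length and by the mapped reads of the library. Of 23240 rows, 9595 reached that mean, 49 matched the symbols and 45 met the whole rule. They comprised 8 Psma genes and 7 Psmb genes of the core, 6 Psmc ATPase genes and 14 Psmd genes of the regulatory particle, 4 Psme activators, the inhibitor Psmf1, 4 Psmg assembly chaperones and Psmc3ip. Psmc3ip matches by its symbol only: it encodes a cofactor of homologous recombination that binds a proteasome ATPase. Psma8, with a mean of 2.18 RPKM, was the member nearest the limit, and Psmb11, the core gene of thymic epithelium, lay outside it at 0.0127 RPKM.

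The libraries came from leukaemic cells taken from the bone marrow of sick mice and sorted as GFP+BFP+CD11b-Gr1-, which the labels name RUNX1-FLT3ITD_AML. The cells were kept for 22 h in SFEM medium that held FLT3L, SCF, IL3 and IL11 as growth factors. The medium also received 200 nM 4OHT, the active form of tamoxifen, or as much of its solvent EtOH. There were 4 libraries: EtOH and 4OHT from B6.Runx1-delta/delta cells (replicate 1) and EtOH and 4OHT from B6.Runx1-delta/+ cells (replicate 2). All 4 therefore carried at least 1 deleted Runx1 allele, and none was normal marrow. The labels name neither the protein on which 4OHT acts nor the driver of GFP, BFP or the Runx1 deletion, and they do not say whether the pair of cultures of a genotype came from 1 mouse. P-values measure only the spread between these samples, which may be technical, and the genotype cannot be told apart from the mouse or the replicate. In the main fit a gene's spread is the difference of its 4OHT change between the genotypes, moderated by a prior over all genes tested. A response that differs by genotype therefore counts as spread.

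The proteasome is built from a barrel-shaped core, whose outer rings are made of Psma products and whose inner rings are made of Psmb products. The products of Psmb5, Psmb6 and Psmb7 carry the cutting sites inside the barrel. A regulatory particle of Psmc ATPases and Psmd subunits sits on the end of the barrel, binds ubiquitin chains, removes them and feeds the unfolded protein into the core. The Psme products are alternative caps that open the core without ubiquitin, and Psmg and some Psmd products are chaperones that help to assemble the parts and then leave. Cells are known to raise most subunit genes together, through the factor NRF1 (gene Nfe2l1) acting at antioxidant response elements, when proteasome activity falls short. In immune cells and after interferon, Psmb8, Psmb9 and Psmb10 replace the catalytic subunits Psmb5, Psmb6 and Psmb7, respectively.

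Promoters of 5 members that passed a test below are shown because they are the sequence nearest to the transcript changes described here. They are RefSeq windows on build GRCm38.p6 of the 250 bases before the annotated start, 5′ to 3′ on the gene's strand. Capitals mark matches on either strand to any of the motifs TGACNNNGC (the antioxidant response element core), TGTGGT (RUNX), CACGTG (the E-box) and CCAAT (the NF-Y box). Psma4 and Psma7 are core genes that rose with 4OHT, Psmd10 and Psmf1 are genes that fell, and Psmb6 is a catalytic gene that was higher in Runx1 delta/delta. The windows are chr9:54950609-54950858 (plus strand) for Psma4, chr2:180042465-180042714 (minus) for Psma7, chrX:140956712-140956961 (minus) for Psmd10, chr2:151741311-151741560 (minus) for Psmf1 and chr11:70525107-70525356 (plus) for Psmb6.
Psma4: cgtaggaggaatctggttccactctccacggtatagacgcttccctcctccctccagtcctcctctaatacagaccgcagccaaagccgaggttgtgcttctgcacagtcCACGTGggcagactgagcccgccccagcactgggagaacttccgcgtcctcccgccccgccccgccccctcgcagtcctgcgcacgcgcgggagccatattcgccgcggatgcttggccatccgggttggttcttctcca
Psma7: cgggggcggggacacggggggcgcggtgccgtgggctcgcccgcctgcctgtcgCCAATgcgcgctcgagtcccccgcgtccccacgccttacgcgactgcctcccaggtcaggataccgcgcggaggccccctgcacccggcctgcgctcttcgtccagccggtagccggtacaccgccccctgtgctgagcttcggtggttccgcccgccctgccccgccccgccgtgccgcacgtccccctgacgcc
Psmd10: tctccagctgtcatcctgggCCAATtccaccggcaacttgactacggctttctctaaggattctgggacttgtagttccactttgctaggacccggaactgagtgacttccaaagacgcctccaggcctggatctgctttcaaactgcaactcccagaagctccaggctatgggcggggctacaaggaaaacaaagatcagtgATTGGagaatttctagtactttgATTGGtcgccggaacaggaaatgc
Psmf1: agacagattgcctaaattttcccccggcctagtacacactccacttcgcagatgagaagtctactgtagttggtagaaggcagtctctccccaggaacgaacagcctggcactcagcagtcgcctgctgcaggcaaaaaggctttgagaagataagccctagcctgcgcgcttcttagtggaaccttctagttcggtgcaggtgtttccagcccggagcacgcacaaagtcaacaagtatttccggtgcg
Psmb6: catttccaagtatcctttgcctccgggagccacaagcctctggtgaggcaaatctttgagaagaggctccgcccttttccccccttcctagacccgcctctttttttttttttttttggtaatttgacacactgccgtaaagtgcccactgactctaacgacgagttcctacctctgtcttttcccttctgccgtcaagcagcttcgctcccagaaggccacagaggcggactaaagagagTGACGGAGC

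The Psma4 window held an E-box that began 140 bases before the start. The Psma7 window held a CCAAT at 196 bases, and the Psmd10 window held 3 matches to CCAAT, at 230 bases and, on the other strand, at 47 and 24 bases. Psmf1 had 0 matches, and the Psmb6 window ended in an antioxidant response element core that began 9 bases before the start. RefSeq windows were found for 37 of the 45 members. The antioxidant response element core was present in 5 of those 37 members (13.5%, Psmb5, Psmb6, Psmc6, Psmd9 and Psmd12), against 11.5% of all 27025 genes with a window and 14.5% of the 6982 tested genes with one. The RUNX motif was present in 6 members (16.2%, against 15.9% and 12.7%), the E-box in 3 (8.11%, against 6.86% and 10.6%) and CCAAT in 13 (35.1%, against 37.5% and 41.8%). The 6 members with TGTGGT were Psma6, Psmb5, Psmc2, Psmc3ip, Psmd2 and Psme3. Of these 0 were called in either comparison below, where only 5 of all 45 members were called in each. With so few calls, that count says nothing about the motif. A match is a description of the letters and not a binding site.

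Markers of other blood cells differed between the libraries. Of 18 measured erythroid genes 17 were lower with 4OHT by the test used below, as were 10.2% of all genes tested. In limma-voom on recovered reads 13 of the erythroid genes were lower. Summed RPKM of the erythroid genes was 63265 and 4719 with EtOH and with 4OHT in delta/delta cells and 34011 and 3149 in delta/+. Summed megakaryocyte markers were 127 and 59.2, then 177 and 53.9 RPKM, and summed mast cell and basophil markers 11.2 and 143, then 12.8 and 27.9 RPKM. Of the latter, Cpa3, Ms4a2 and Prss34 rose in both pairs, and Prss34 reached the highest level (79.6 and 11.3 RPKM with 4OHT). In delta/+ cells Mcpt8 fell from 3.61 to 0.514 RPKM and Fcer1a from 4.45 to 2.79 RPKM. Summed neutrophil and macrophage markers were 45.4 and 52.2, then 21.4 and 23.6 RPKM, so this sum differed more between the genotypes than between the treatments. Most of it was S100a8 (30.5 and 29.7, then 9.46 and 9.39 RPKM) and S100a9. Csf1r went the other way between the genotypes (0.201 and 0.281, then 0.658 and 0.602 RPKM). Cd14 was higher with 4OHT (0.155 and 1.11, then 0.0793 and 0.797 RPKM). Itgam (CD11b), a gene of the sort, was at most 0.358 RPKM. Summed lymphoid markers were at most 2.68 RPKM, with Ms4a1, Pax5, Ebf1 and Cd3e at 0, and summed stromal and endothelial markers lay between 2.26 and 12.1 RPKM, with Cdh5 at 0. The labels name an acute myeloid leukaemia (AML), and of its 6 progenitor markers 3 were near 0 and 3 were expressed. Kit, Cd34 and Mpo reached at most 1.61, 0.395 and 0.556 RPKM in any library, whereas Flt3 lay between 12.6 and 46.3, Myb between 17.0 and 99.2 and Runx1 between 328 and 568 RPKM. Kit was higher with 4OHT in both pairs (0.0781 and 1.61, then 0.0973 and 0.740 RPKM) and, with a mean below 1 RPKM, was not tested. The label of the AML holds RUNX1 and FLT3ITD, and the cells carry deleted Runx1 alleles. By their label, delta/delta cells hold no intact Runx1 allele of their own. Whether the Runx1 reads of delta/+ cells, or the Flt3 reads, came from the cells' own intact genes cannot be told here. With 4OHT Myb was higher (log2 change 1.82, adjusted p = 0.0130 in limma) and Runx1 lower (log2 change -0.67, adjusted p = 0.0129). The erythroid regulators Gata1 and Klf1 were abundant (Gata1 308 and 165, then 200 and 142 RPKM). In RNA from pooled cells, fewer cells of a type and less RNA per cell cannot be told apart. The part of these markers in the changes described below, among them those of Psma4, Psma7, Psma8, Psmf1 and Psmd10, and in the genotype differences was not tested. The labels allow for either of a pair of library kits and do not say which library had which, and their part was not tested either.

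Nearly all proteasome genes were abundant in every library. The 31 subunits of the complete proteasome (Psma1 to Psma7, Psmb1 to Psmb7, the 6 Psmc ATPases and 11 Psmd subunits) had between 1734 and 16017 reads per library, so counting error was small beside the differences described below. Their mean levels spanned 5.08-fold, from 46.2 RPKM for Psmd6, a lid subunit, to 235 RPKM for Psmb3, a core subunit. Within the core the span was 2.64-fold, from 89.1 RPKM for Psma3 to Psmb3. Psmc3, an ATPase, stood at 233 RPKM and Psme3, the nuclear activator PA28 gamma, at 232 RPKM, and the 3 highest genes overlapped in their library values. Of the 7 assembly chaperones, Psmg1 at 57.1 RPKM lay within the range of the subunits. The other chaperones and the inhibitor lay below it: Psmd5 averaged 43.9, Psmg2 39.6, Psmd10 23.6, Psmd9 22.5, Psmg3 21.0, Psmf1 19.7 and Psmg4 12.1 RPKM. Psme4, the activator PA200, averaged 15.2 RPKM, the lowest of the activators.

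**Figure D1:**
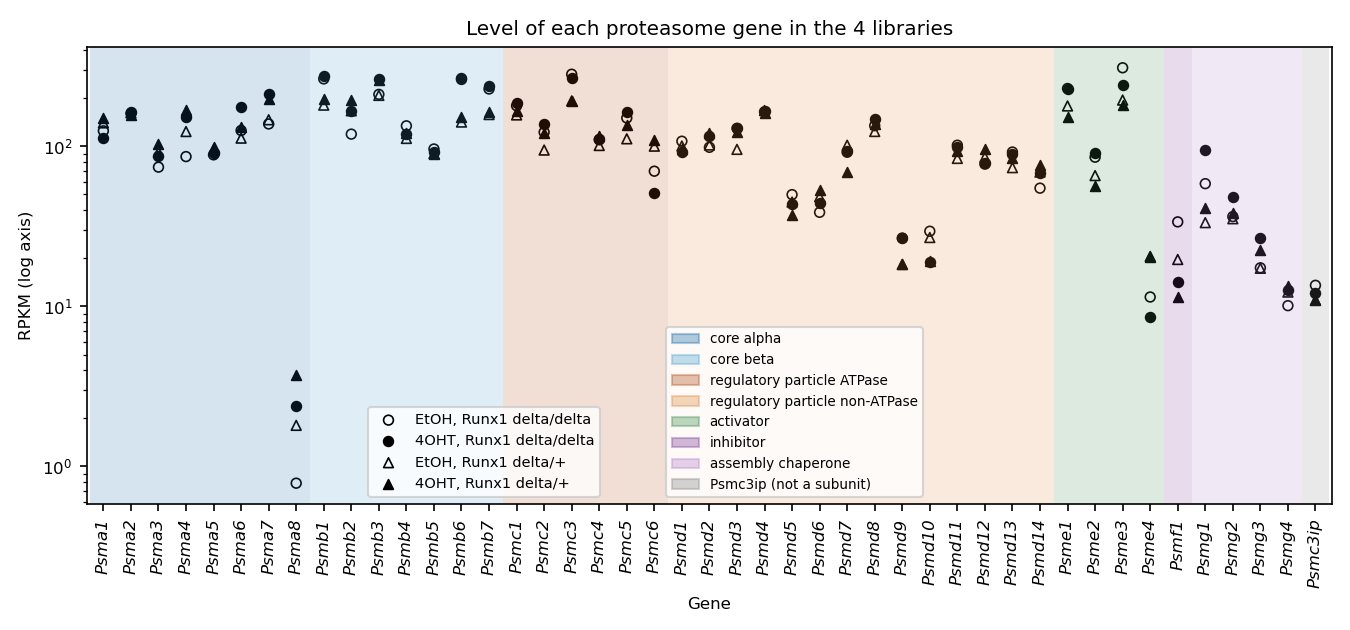
RPKM (log axis) of each of the 45 proteasome genes in the 4 libraries; open symbols are EtOH, filled symbols 4OHT, circles Runx1 delta/delta and triangles Runx1 delta/+. Core and regulatory particle subunits lie mostly between 46.2 and 235 RPKM on average, Psma8 lies far below the rest at 2.18 RPKM, and for most genes the 4 symbols nearly coincide.

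As a share of all summed RPKM, the 45 genes took 1.03% (EtOH) and 1.16% (4OHT) in delta/delta cells and 1.04% and 1.16% in delta/+ cells. Summed RPKM of the 14 core subunits was 1.15-fold higher with 4OHT in the delta/delta pair of libraries and 1.13-fold higher in the delta/+ pair. For the 17 regulatory particle subunits the same ratio was 1.02 and 1.08, and for the 4 activators it was 0.898 and 0.893. The median regulatory particle subunit stood at 0.828, 0.674, 0.713 and 0.749 of the median core subunit with EtOH and with 4OHT in delta/delta cells and likewise in delta/+ cells. That ratio was lower with 4OHT in the first pair and higher in the second, so it showed no common direction. Globin transcripts held 12.3% and 7.66% of the summed RPKM in the EtOH libraries and 0.918% and 0.662% in the 4OHT libraries, and shares of the total move with them.

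Setting 4OHT against EtOH asks which proteasome transcripts changed within 22 h. Few did: the core genes Psma4, Psma7 and Psma8 rose, the inhibitor gene Psmf1 and the assembly gene Psmd10 fell, and 40 of 45 members did not pass. Values are given in the order EtOH and 4OHT, first for Runx1 delta/delta and then for Runx1 delta/+. Tests were made with limma on log2(RPKM + 1), with treatment and genotype as terms and a Benjamini-Hochberg adjustment over 9595 genes at 0.05. The 3 rises are 6.67% of the members, where 22.2% of all tested genes were higher. The 2 falls are 4.44%, where 10.2% of all tested genes were lower. The median log2 change of the 45 members was 0.08, against 0.16 for all genes tested, and their median size of change was 0.17, against 0.35. For 42 of 45 members (93.3%) the 95% interval of the change lay within 2-fold in either direction, as it did for 69.9% of all genes tested, and for 31 members it lay within 1.5-fold. Signs depended on the scaling: as deposited 28 members were positive and 17 negative, and after median-ratio scaling, which moved the median of all genes to -0.02, 14 were positive and 31 negative. Of the 45 members, 17 lay above the median change of all genes as deposited, and 16 after median-ratio scaling.

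**Figure D2:**
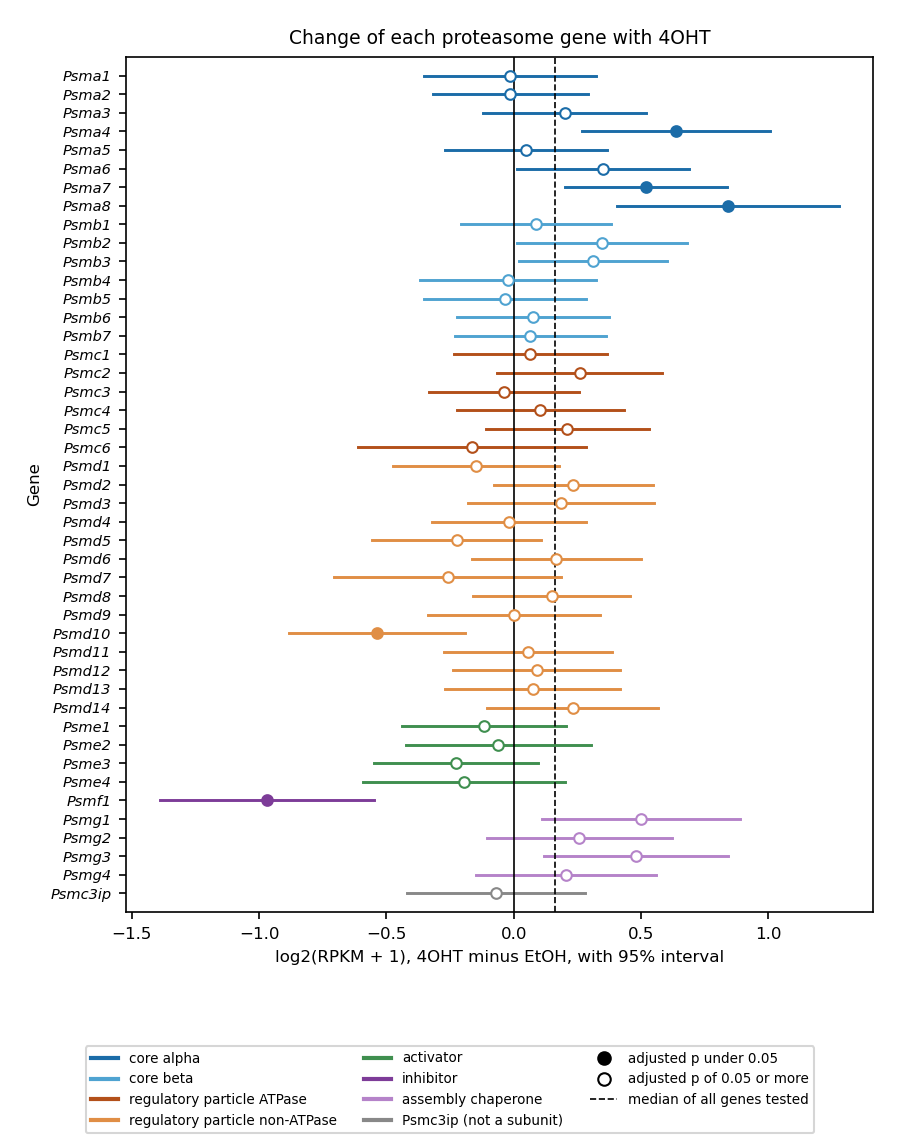
Change of each proteasome gene with 4OHT on the log2(RPKM + 1) scale (4OHT minus EtOH, fitted over both genotypes), with 95% intervals from limma; filled points have an adjusted p under 0.05, the dashed line is the median of all 9595 genes (0.16). Psma4, Psma7 and Psma8 are filled to the right, Psmf1 and Psmd10 to the left, and the regulatory particle subunits lie near 0.

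Among the outer ring genes, Psma4 stood at 86.2 RPKM with EtOH and 153 with 4OHT in delta/delta cells, and at 124 and 170 in delta/+ cells. Both 4OHT libraries were above both EtOH libraries, with a log2 change of 0.64 (standard error 0.15, adjusted p = 0.0269 in limma). Psma7 went from 138 to 212 RPKM in delta/delta, and in delta/+ from 146 to 197 RPKM. The groups did not overlap, and the log2 change was 0.52 (standard error 0.13, adjusted p = 0.0318 in limma). Psma8 encodes a testis form of the Psma7 subunit and is a close paralog, so reads of the abundant gene could be assigned to the rare one. It rose from 0.786 to 2.40 RPKM in delta/delta (46 and 149 reads) and from 1.80 to 3.73 RPKM in delta/+ (103 and 249 reads), again without overlap (log2 change 0.84, standard error 0.17, adjusted p = 0.0199 in limma). At this low level the size depends on the pseudocount: the RPKM were 3.05-fold and 2.07-fold higher, and the log2 change was 1.25 with a pseudocount of 0.1 and 1.27 in limma-voom on recovered reads. Psma8 made up 0.566%, 1.12%, 1.22% and 1.86% of the summed RPKM of the pair with Psma7 in the 4 libraries, in the order delta/delta (EtOH, 4OHT), then delta/+ (EtOH, 4OHT). Psma6 went from 126 to 176 RPKM and, in delta/+, from 112 to 131 and did not pass (log2 change 0.35, adjusted p = 0.1004 in limma), although its 4OHT values too were above both EtOH values. The 17 falls among erythroid markers given above are in the same comparison. Psma1, Psma2 and Psma5 had log2 changes between -0.01 and 0.05, and Psma3 0.20.

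The calls of Psma4 and Psma7 were lost with median-ratio scaling (adjusted p = 0.0785 and 0.116), whereas that of Psma8 held (adjusted p = 0.0386). All 5 calls were lost when genotype was left out of the model, and when any 1 library was left out, which leaves no degree of freedom for the genotype term. Without EtOH replicate 1, without EtOH replicate 2, without 4OHT replicate 1 and without 4OHT replicate 2, in that order, the log2 change was 0.38, 0.90, 0.71 and 0.56 for Psma4 and 0.52, 1.17, 1.08 and 0.60 for Psma8. It was -0.59, -1.34, -1.11 and -0.82 for Psmf1 in the same order. Psma7 and Psmd10 moved less, between 0.47 and 0.57 and between -0.60 and -0.47. Over these fits the limma adjusted p of the 5 genes ran from 0.088, for Psmf1 without EtOH replicate 2, to 0.634.

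Of the 7 inner ring genes of the standard core, 0 passed in limma and 0 in limma-voom on recovered reads, while 2 had an unadjusted p under 0.05. Among all 9595 genes tested, 4387 had an unadjusted p under 0.05 with 4OHT in limma. Psmb3 had 211 and 263, then 208 and 258 RPKM, the same ratio in both pairs (log2 change 0.31, adjusted p = 0.0938 in limma). Psmb2 went from 119 to 166 RPKM and, in delta/+, from 167 to 194 (log2 change 0.35, adjusted p = 0.0984 in limma), so that its EtOH value in delta/+ was above its 4OHT value in delta/delta. The 3 catalytic genes were near their EtOH levels in both pairs. Psmb5, the chymotrypsin-like subunit, had 96.2 and 91.9 RPKM (EtOH, then 4OHT) in delta/delta and 90.02 and 89.96 RPKM in delta/+ (log2 change -0.03, 95% interval -0.35 to 0.29). Psmb6, the caspase-like subunit, had 262 and 269 RPKM in delta/delta and 142 and 153 RPKM in delta/+ (log2 change 0.08, 95% interval -0.22 to 0.38). Psmb7, the trypsin-like subunit, had 228 and 239 RPKM in delta/delta and 158 and 165 RPKM in delta/+ (log2 change 0.07, 95% interval -0.23 to 0.36). In Psmb6 and Psmb7 the difference between the genotypes was larger than that between the treatments.

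Of the 17 regulatory particle subunits 0 passed in limma or limma-voom with 4OHT and 0 had an unadjusted p under 0.05. Their median log2 change was 0.09. The highest was Psmc2, an ATPase, at 123 and 138 RPKM in delta/delta and 94.7 and 121 RPKM in delta/+ (log2 change 0.26, 95% interval -0.07 to 0.58). The lowest was Psmd7, the partner of the deubiquitinase in the lid, whose values moved apart between pairs. It was at 91.8 and 93.7 RPKM (EtOH, then 4OHT) in delta/delta and at 102 and 69.2 RPKM in delta/+ (log2 change -0.26, adjusted p = 0.307 in limma). Psmc6, an ATPase, had 69.9 and 50.8 RPKM in delta/delta and 100 and 109 RPKM in delta/+, with opposite signs in the pairs (log2 change -0.16, adjusted p = 0.509 in limma). With 1 pair per genotype the difference between these responses was not tested. Psmd14, the deubiquitinase, had 54.8 and 68.4, then 69.0 and 76.6 RPKM (log2 change 0.23, adjusted p = 0.234 in limma). The ubiquitin receptor gene Psmd4 had 164 and 165, then 167 and 163 RPKM, which put its 4 libraries within a few percent of each other. Psmd2, a large scaffold subunit, was at 98.6 and 115, then 102 and 121 RPKM (log2 change 0.23, adjusted p = 0.202 in limma).

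Among the genes that regulate or build the proteasome, Psmf1 and Psmd10 fell and the others did not pass. Psmf1 encodes PI31, a protein that inhibits the isolated core in the test tube and carries proteasomes within cells. Its level was 33.7 RPKM in EtOH and 14.1 RPKM in 4OHT of delta/delta, and 19.6 and 11.4 RPKM in delta/+. Both 4OHT libraries lay below both EtOH libraries, a 2.39-fold and a 1.73-fold difference (log2 change -0.97, standard error 0.17, adjusted p = 0.0129 in limma). Psmd10 encodes gankyrin, a chaperone of the ATPase ring that is also known as an oncoprotein. It fell from 29.5 to 19.0 RPKM and from 26.9 to 19.2 RPKM, without overlap (log2 change -0.54, standard error 0.14, adjusted p = 0.0359 in limma). The other chaperones of that ring did not pass: Psmd5 had 49.9 and 43.6, then 44.8 and 37.4 RPKM (log2 change -0.22), and Psmd9 had 26.7 and 26.7, then 18.3 and 18.4 RPKM (log2 change 0.00).

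The 4 Psmg genes, whose products assemble the outer ring, all had positive log2 changes, with a median of 0.37, and kept that sign under each scaling tried. Of these, 0 passed in limma or limma-voom, and 2 had an unadjusted p under 0.05, as did 4387 of all 9595 genes tested. Psmg1 had 58.4 and 95.2 RPKM in delta/delta and 33.3 and 41.4 RPKM in delta/+ (log2 change 0.50, standard error 0.16, adjusted p = 0.0596 in limma). Psmg3 had 17.4 and 26.9, then 17.3 and 22.5 RPKM (log2 change 0.48, standard error 0.14, adjusted p = 0.0542 in limma), with both 4OHT values above both EtOH values. Psmg2 and Psmg4 had log2 changes of 0.26 and 0.20. The 4 activators all had negative changes in the fit over both genotypes, again under each scaling. Of these 4, 0 passed in limma or limma-voom, with 0 at an unadjusted p under 0.05. Only 3 were lower in both pairs: Psme2 had 85.5 and 91.3 RPKM in delta/delta and 65.6 and 56.4 RPKM in delta/+. Psme3 had 309 and 242 RPKM in delta/delta and 194 and 181 RPKM in delta/+ (log2 change -0.23, adjusted p = 0.229 in limma). Psme1 and Psme2, the paired subunits of the interferon-inducible activator PA28, had log2 changes of -0.12 and -0.06, and Psme4 one of -0.20. Psmc3ip, which is no subunit, had 13.5 and 12.2, then 10.93 and 10.96 RPKM (log2 change -0.07).

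In the authors' deposited table, which tests 1 library against 1 within each replicate number, 5 members had a corrected p under 0.05 in replicate 1, all higher with 4OHT: Psma4, Psma6, Psma7, Psmb2 and Psmg1. In replicate 2 the authors' deposited table gave 0 members, the lowest corrected p being 0.103, for Psma7. The fold of Psma4 in the authors' deposited table was 1.89 in replicate 1 and 1.42 in replicate 2. Such a test compares those libraries and not the conditions. The share of all genes past that threshold in the authors' test was not counted. The 5 members therefore cannot be set against a background.

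The immunoproteasome genes left out of the rule are set beside the standard catalytic genes, because their products take the same places. Psmb8 went from 23.0 to 92.5 RPKM in delta/delta, and in delta/+ from 25.2 to 50.7 RPKM (log2 change 1.47, standard error 0.25, adjusted p = 0.0125 in limma). Psmb9 went from 51.4 to 104 RPKM and from 34.0 to 48.4 RPKM (log2 change 0.75, standard error 0.17, adjusted p = 0.0258 in limma); its 4OHT value in delta/+ lay below its EtOH value in delta/delta. Psmb10 had 58.9 and 55.7, then 33.8 and 34.1 RPKM and did not pass (log2 change -0.03, adjusted p = 0.871 in limma). As a share of the summed RPKM of Psmb8 and Psmb5, Psmb8 made up 19.3% and 50.2% with EtOH and with 4OHT in delta/delta cells and 21.9% and 36.0% in delta/+. Psmb9 made up 16.4% and 27.9%, then 19.3% and 23.99% of the pair with Psmb6. Psmb10 made up 20.5% and 18.9%, then 17.6% and 17.2% of the pair with Psmb7. The Psmb8 and Psmb9 shares were thus higher with 4OHT in both pairs while the Psmb10 share was not. With median-ratio scaling Psmb9 no longer passed (adjusted p = 0.0645) and Psmb8 did (adjusted p = 0.0248), and fitting treatment alone ended both (adjusted p = 0.339 and 0.0742). Leaving out 1 library moved the change of Psmb9 between 0.21, without 4OHT replicate 1, and 1.30, without 4OHT replicate 2; that of Psmb8 ranged from 1.04 to 1.90 and passed only without 4OHT replicate 2.

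**Figure D3:**
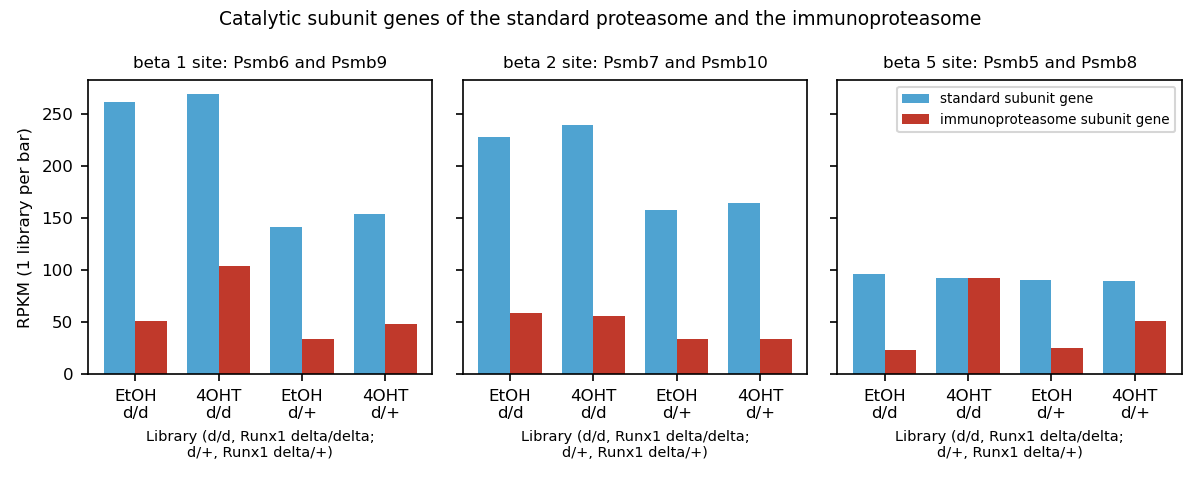
RPKM of the standard (blue) and immunoproteasome (red) catalytic subunit genes in each library, 1 bar per library with no error bar, for the 3 catalytic positions. Psmb5, Psmb6 and Psmb7 bars keep their height between EtOH and 4OHT of a genotype, Psmb8 rises from 23.0 to 92.5 RPKM and, in delta/+, from 25.2 to 50.7, and Psmb6 and Psmb7 are taller in Runx1 delta/delta.

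The comparison of Runx1 delta/delta with Runx1 delta/+ sets the libraries of replicate 1 against those of replicate 2. The catalytic genes Psmb6 and Psmb7 and the assembly gene Psmg1 were higher in delta/delta, and the ATPase gene Psmc6 and the activator gene Psme4 were lower. The 3 higher genes are 6.67% of the members, where 4.68% of all tested genes were higher, and the 2 lower genes are 4.44%, where 6.91% were lower, so both shares were near the background. The median log2 difference of the members was 0.12, against -0.03 for all genes, and -0.02 against -0.16 when RPKM was rescaled without globin genes; in both cases 32 of 45 members lay above the median of all genes, and 26 did with the GC and length trend removed.

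**Figure D4:**
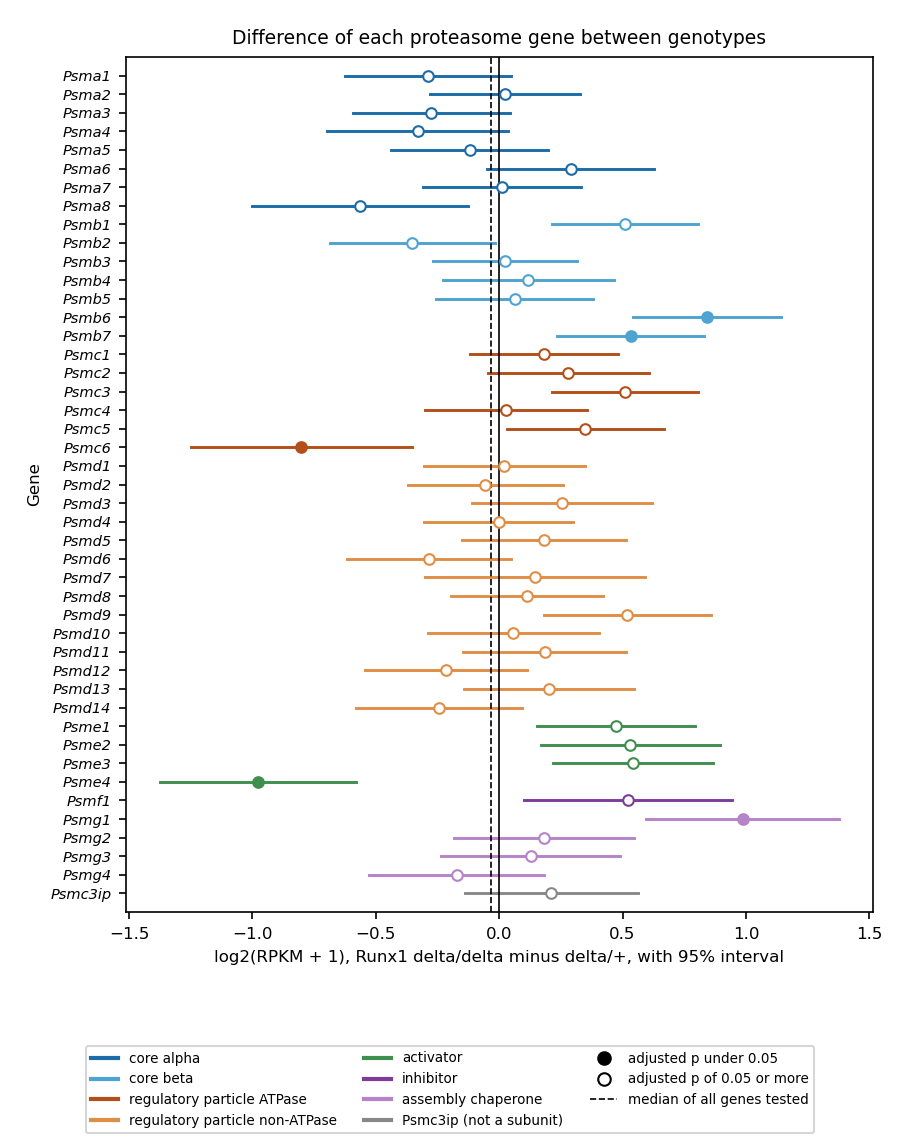
Difference of each proteasome gene between genotypes on the log2(RPKM + 1) scale (Runx1 delta/delta minus delta/+, fitted over both treatments), with 95% intervals from limma; filled points have an adjusted p under 0.05, the dashed line is the median of all 9595 genes (-0.03). Psmb6, Psmb7 and Psmg1 are filled to the right, Psmc6 and Psme4 to the left.

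Psmb6 had 262 and 269 RPKM in the delta/delta libraries and 142 and 153 RPKM in the delta/+ libraries, a 1.85-fold difference in EtOH and a 1.75-fold difference in 4OHT (log2 difference 0.84, standard error 0.12, adjusted p = 0.0254 in limma). Psmb7 was 1.44-fold and 1.45-fold higher in delta/delta (log2 difference 0.53, standard error 0.12, adjusted p = 0.0488 in limma). The third catalytic gene, Psmb5, differed by 0.06 in log2 units (95% interval -0.26 to 0.38, adjusted p = 0.758 in limma). Psmb1, a structural inner ring gene, had 264 and 274 RPKM in delta/delta and 181 and 197 RPKM in delta/+ and narrowly missed the threshold (log2 difference 0.51, adjusted p = 0.0521 in limma). Psmg1, a partner in the first chaperone pair of the outer ring, was 1.75-fold higher in EtOH and 2.30-fold higher in 4OHT (log2 difference 0.99, standard error 0.16, adjusted p = 0.0290 in limma). The outer ring genes themselves had a median difference of -0.20, and 0 of 8 passed in limma or limma-voom (1 at an unadjusted p under 0.05). Between the genotypes, 3114 of all 9595 genes tested had an unadjusted p under 0.05 in limma.

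Psmc6 had 69.9 and 50.8 RPKM in delta/delta and 100 and 109 RPKM in delta/+ (log2 difference -0.80, standard error 0.18, adjusted p = 0.0488 in limma). The other 5 ATPases all had positive differences as deposited, the largest in Psmc3, with 282 and 267 against 192 and 192 RPKM (log2 difference 0.51, adjusted p = 0.0521 in limma). Psme4 had 11.4 and 8.53 RPKM in delta/delta and 20.5 and 20.4 RPKM in delta/+ (log2 difference -0.98, standard error 0.16, adjusted p = 0.0292 in limma). The other 3 activators were above their delta/+ values in both treatments and did not pass. Among these, Psme3 had a log2 difference of 0.54 (adjusted p = 0.0543 in limma), Psme2 of 0.53 and Psme1 of 0.47. Psmb9 and Psmb10, outside the rule, were higher in delta/delta too (log2 differences 0.84 and 0.74, adjusted p = 0.0410 and 0.0343 in limma). Both stopped passing after correction for GC content and length (adjusted p = 0.0699 and 0.0657) and without any 1 library, which moved the difference of Psmb9 between 0.33, without 4OHT replicate 1, and 1.34, without EtOH replicate 1. Psmb7 and Psmc6 lost their calls in 11 of 13 alternatives each. With the trend on base composition and length removed, the log2 difference of Psmc6 was -0.34 (adjusted p = 0.242). Leaving out 1 library also ended all 5 calls, and moved Psmg1 between 0.64, without 4OHT replicate 1, and 1.33, without EtOH replicate 1.

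Genes that feed or control the proteasome were read from lists. Of 6 genes for ubiquitin and its activating enzymes 0 passed with 4OHT in limma or limma-voom, and 1 had an unadjusted p under 0.05 (median log2 change 0.06). Of 9 associated factors without a Psm symbol, 0 passed in either, 0 at an unadjusted p under 0.05 (median 0.15). Among them, Pomp, the maturation chaperone of the core, had 190 and 217, then 157 and 171 RPKM. Shuttle factors carry tagged proteins to the proteasome, and 3 of 7 rose and 0 fell (median 0.29). Rad23b went from 83.0 to 153 RPKM and, in delta/+, from 80.2 to 103 (log2 change 0.62, adjusted p = 0.0422 in limma). Ubqln2 rose by 0.71 and Ubqln4 by 0.60 in log2 units (adjusted p = 0.0181 and 0.0243 in limma). Of 13 genes in a list for the unfoldase p97 and its cofactors, 2 rose (Nsfl1c and Npepps) and 1 fell (Faf2). Npepps encodes an aminopeptidase and is not a p97 cofactor, so Nsfl1c was the only cofactor gene that rose. Vcp, the unfoldase itself, had a log2 change of 0.14 (adjusted p = 0.416 in limma). These shares stand beside 22.2% higher and 10.2% lower among all genes tested, and beside 4387 of 9595 at an unadjusted p under 0.05. With median-ratio scaling 0 of the rises among shuttle factors and the p97 list passed, and 1 gene of the p97 list still fell.

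Of 14 measured regulators of proteasome gene transcription, 2 rose and 3 fell (median log2 change -0.05), beside 22.2% higher and 10.2% lower among all genes tested. Nfe2l1 itself had 20.3 and 23.2 RPKM in delta/delta and 17.2 and 18.2 RPKM in delta/+ (log2 change 0.13, adjusted p = 0.484 in limma), and Nfe2l2, its relative in the response to oxidants, had a log2 change of -0.08 (adjusted p = 0.681 in limma). Foxo3, a factor of starvation and stress responses, fell from 104 to 39.7 RPKM and, in delta/+, from 62.2 to 25.6 (log2 change -1.31, standard error 0.13, adjusted p = 0.00446 in limma). Nfya, a subunit of the factor that binds CCAAT, went from 36.7 to 25.3 RPKM and, in delta/+, from 26.1 to 16.8 (adjusted p = 0.0302 in limma), and Bach1, a repressor at antioxidant response elements, fell by 0.59 in log2 units (adjusted p = 0.0368 in limma). Stat3 rose from 18.8 to 35.6 RPKM and, in delta/+, from 20.4 to 34.4 (adjusted p = 0.0128 in limma), and Maff, a small MAF partner, by 0.71 in log2 units from a level of 0.145 and 1.20 RPKM (adjusted p = 0.0407 in limma). With median-ratio scaling 1 of the 14 rose and 4 fell. No relation between these factors and the proteasome genes was tested.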

How the data were processed

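RNA sequencing of 4 libraries was analysed: EtOH and 4OHT for each of 2 Runx1 genotypes, the genotype being the replicate number. Per the file headers, the authors deposited RPKM per gene and library with replicates kept apart; a fold, p-value and corrected p-value of Kal's Z-test come from the authors' deposited table too. The fold was checked to be a ratio of shares of summed RPKM in all 13149 and 12844 rows above 0 in both libraries. The submitters' processing notes name build mm 9; how reads were aligned and counted, and whether strand was used, is not stated in the sources used here, so reads of overlapping genes, of near-identical processed pseudogenes and of Psma7 and Psma8 may be shared.

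Whole reads recovered from the RPKM steps came out for 9548 of 9595 genes and all 49 proteasome rows (tolerance 0.003 reads), and put the mapped reads at 34.6 M (EtOH) and 36.7 M (4OHT) in delta/delta cells, and at 33.7 and 39.4 M in delta/+ cells; reads are not independent molecules, so read numbers speak for counting error only. The genes that averaged 1 RPKM or more were fitted as log2(RPKM + 1) with limma 3.58.1 in R 4.3.3 (treatment and genotype, trended prior, two-sided, Benjamini-Hochberg over 9595 genes, threshold 0.05). The fit has 1 residual degree of freedom, which is the difference of the 4OHT change between the genotypes, and a prior of 4.37 drawn from all genes tested. The fit was tested on simulated data in which few genes changed and no change differed between genotypes, which does not vouch for the calls here. The design allowed for counts, but the values are RPKM. Libraries sharing a number deviated together (correlation across genes 0.664) and share a genotype.

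The 13 alternatives were 2 other filters, another pseudocount, 2 scalings, no genotype term, no prior trend, leaving out each library, removal of a GC and length trend, and limma-voom on the recovered reads. Members and lists were chosen with earlier results of these data known. All members could be named; full statistics were given to the extremes of each class, the called genes and the catalytic genes, and up to 4 genes per list. Coordinates and sequences are from RefSeq on GRCm38.p6 by symbol and were not joined to positions on the older build.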

Additional observations from a re-analysis of the deposited data

How the results depend on the processing

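The number of members higher with 4OHT (3) became 0 with no filter on low values, 1 with median-ratio scaling and 0 with no replicate block; the number lower (2) became 1, 2 and 0. The number higher in Runx1 delta/delta (3) was 0 with no filter and 0 when only genotype was fitted, and the number lower (2) was 0 in both and 1 with a pseudocount of 0.1, a mean of at least 5 RPKM, median-ratio scaling, no prior trend, or the GC and length trend removed. Leaving out 1 library, fitted without the replicate block because 3 libraries leave no degrees of freedom for it, gave 0 to 0 members in each of these 4 counts; the lone sample of an arm is then assumed to vary like the others. Over those fits the median log2 change of the members (0.075) ran from -0.0035, without EtOH replicate 2, to 0.151, without 4OHT replicate 2; it was -0.129 with median-ratio scaling and 0.0061 without globin genes. No result turned its direction while called. For all 9595 genes the counts with 4OHT were 2130 higher and 983 lower, 117 and 116 with no replicate block, and 1221 and 1325 with median-ratio scaling. With no filter 17213 genes were tested, 1480 higher and 803 lower. The pseudocount, the globin-free scaling, the prior and the limma-voom fit kept all 5 calls with 4OHT; the last and the GC correction were chosen after seeing the data. Every fit rests on 4 libraries, so a member whose interval reaches 0 may still have changed within that interval.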

Other observations

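Other large multi-subunit machines of the cytosol were set beside the proteasome. Of the 8 genes of the chaperonin CCT, which folds actin and tubulin, 2 rose with 4OHT and 0 fell, with a median log2 change of 0.29, whereas 0 passed with median-ratio scaling (median 0.09). Cct6a went from 113 to 206 RPKM and, in delta/+, from 137 to 197 (log2 change 0.69, adjusted p = 0.0194 in limma), and Cct3 from 211 to 316 RPKM and, in delta/+, from 192 to 249 (log2 change 0.47, adjusted p = 0.0385 in limma). Of 81 measured genes with a cytosolic ribosomal protein symbol 2 rose and 0 fell, and with median-ratio scaling 1 rose and 1 fell. Their median was 0.06, against 0.08 for the 45 proteasome genes. The 2 rises were Rps12 (log2 change 0.36, adjusted p = 0.0322 in limma) and Rpl7l1 (log2 change 0.93, adjusted p = 0.00809 in limma). Rpl7l1 is a paralog of Rpl7 that matches by its symbol, not a standard subunit gene. Among all genes tested, 22.2% were higher and 10.2% lower with 4OHT. Their median log2 change was 0.16 as deposited and -0.02 with median-ratio scaling.

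Among proteasome partners that differed between the genotypes, Uchl5, a deubiquitinase of the regulatory particle, had 21.1 and 25.9 RPKM in delta/delta cells against 37.3 and 45.2 RPKM in delta/+ cells (log2 difference -0.78, adjusted p = 0.0317 in limma). Uba6, an alternative ubiquitin-activating enzyme, had 2.99 and 4.37 against 6.37 and 8.27 RPKM (log2 difference -0.84, adjusted p = 0.0334 in limma). Shfm1, a small subunit of the lid without a Psm symbol, had 369 and 357 against 243 and 224 RPKM (log2 difference 0.64, adjusted p = 0.0343 in limma). Psmd9, a chaperone of the ATPase ring, stood 1.46-fold and 1.45-fold higher in delta/delta and did not pass (log2 difference 0.52, adjusted p = 0.0647 in limma).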
